A study of Homo sapiens with 9 samples.

Results

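The 10 genes described here are IL34, CSF1, their receptor CSF1R, and the macrophage markers LYZ, C1QA, C1QB, C1QC, CD68, CD14 and TYROBP, in PC3 xenografts of mice given vehicle or an antibody-drug conjugate. They were chosen by name after the differences between treated and vehicle tumors in these libraries were known, so their levels in those groups are a description and carry no test. Of the 10 genes, 8 were among the 16204 genes listed in either of the 2 count tables, 7 were in both tables, and 6 passed the filter on low counts when 9 libraries were fitted together. C1QC and TYROBP were in neither table, and since the tables list no gene with fewer than 2 libraries at 5 counts or more, no value is given for them.

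IL-34 and CSF-1 are structurally different cytokines that bind the same receptor tyrosine kinase, CSF1R, on monocytes and macrophages, where they sustain survival, proliferation and differentiation. CSF-1 is made by many stromal and tumor cells, and IL-34 is best known from keratinocytes and neurons, where it maintains Langerhans cells and microglia. The marker genes encode lysozyme (LYZ), the chains of the complement recognition molecule C1q (C1QA, C1QB and C1QC), a lysosomal glycoprotein (CD68), a coreceptor for bacterial lipopolysaccharide (CD14), and a signalling adaptor of receptors such as TREM2 (TYROBP).

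PC3, a human line derived from a bone metastasis of prostate cancer, was grown under the skin of male NSG mice (NOD.Cg-Prkdc scid Il2rg tm1Wjl/SzJ), which lack T, B and NK cells but keep macrophages and neutrophils. Per the series record, mice were 11 weeks old, tumors had reached 90 mm3 at the start, and treatment was weekly retro-orbital PBS or 5 mg/kg of a conjugate for 5 cycles; for the experiment at this dose the study's methods give another age, starting volume and number of cycles, and the record's values are those they give for a separate experiment at another dose. Both conjugates, patritumab deruxtecan (P-DXd, directed at HER3) and trastuzumab deruxtecan (T-DXd, directed at HER2), carry a topoisomerase I inhibitor. Each group had 3 libraries of whole tumor RNA, and since titles and treatment fields name opposite conjugates for the 6 treated libraries, the names T-DXd-titled and P-DXd-titled follow the titles.

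Total counts ranged from 90761763 to 125538606 in PBS libraries and from 54481702 to 83721486 in treated libraries. Reads of mouse tissue are not separated from human reads in the tables, and the species behind each count was not tested. P-DXd-titled replicate 2 stood apart in skeletal muscle markers, with 2723 CPM (counts scaled to the adjusted library total) summed over 7 genes, against 91.6 to 225 CPM in the other treated libraries and 14.3 to 48.4 CPM in PBS libraries. PBS replicate 1 had the highest LYZ level and the lowest CSF1 level of the PBS libraries, so values without either library are given where they matter.

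Promoter sequence from RefSeq was matched for 6 of the 10 genes, and entries for IL34, CSF1, LYZ and C1QC were missing. The 250 bases upstream of the start site were searched on either strand for GAGGAA, the core bound by PU.1, the transcription factor of myeloid cells encoded by SPI1. The windows of 2 genes are shown because CSF1R has separate upstream and downstream start sites that differ in this motif, and because CD14 holds it but, unlike CSF1R, had overlapping levels in treated and PBS tumors. Capitals mark GAGGAA, and sequences run 5′ to 3′ toward the start site, all on the minus strand of GRCh38.p14. The upstream CSF1R window is chr5:150113366-150113615, the downstream CSF1R window is chr5:150086555-150086804, and the CD14 window is chr5:140633176-140633425.
CSF1R upstream: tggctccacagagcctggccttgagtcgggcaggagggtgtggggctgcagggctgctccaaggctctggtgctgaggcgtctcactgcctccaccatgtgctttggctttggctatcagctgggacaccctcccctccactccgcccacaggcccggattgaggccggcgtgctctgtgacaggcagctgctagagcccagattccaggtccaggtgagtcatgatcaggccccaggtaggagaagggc
CSF1R downstream: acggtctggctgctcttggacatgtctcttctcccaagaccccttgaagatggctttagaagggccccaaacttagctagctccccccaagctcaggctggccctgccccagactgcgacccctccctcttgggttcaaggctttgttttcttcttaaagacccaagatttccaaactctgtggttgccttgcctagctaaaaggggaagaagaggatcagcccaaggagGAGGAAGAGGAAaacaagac
CD14: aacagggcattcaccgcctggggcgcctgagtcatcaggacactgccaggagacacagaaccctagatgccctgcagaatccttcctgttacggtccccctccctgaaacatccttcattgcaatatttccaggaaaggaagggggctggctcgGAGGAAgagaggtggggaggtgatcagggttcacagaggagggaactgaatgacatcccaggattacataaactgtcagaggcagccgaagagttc
The downstream CSF1R window held 2 adjoining copies of GAGGAA, beginning 20 and 14 bases before the start site, and the upstream window held none. The CD14 window held 1 copy, beginning 96 bases before the start site. The windows of CD68 and TYROBP held 1 and 2 copies, counting both strands, and those of C1QA and C1QB held 0. GAGGAA was present in 23.6% of 35116 windows of this length, so these matches describe the letters only. The AP-1 motif TGANTCA, present in 6.57% of windows, was found in those of CD68, CD14 and upstream CSF1R, and the NF-kappaB consensus, present in 5.21%, was found in none of the members' windows.

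Of the ligands, IL34 (ENSG00000157368.6, chromosome 16, 70613798 to 70694585 as the tables list it, on a build the tables do not name) was low in vehicle tumors and readily counted in treated tumors. PBS replicates 1 to 3 had 12, 15 and 20 counts, P-DXd-titled replicates 152, 193 and 220, and T-DXd-titled replicates 266, 224 and 201. In CPM these were 0.136, 0.117 and 0.178 in PBS libraries, 1.81, 3.54 and 3.35 in those titled P-DXd, and 3.66, 3.01 and 3.06 in those titled T-DXd. Every treated library lay above every PBS library, and P-DXd-titled replicate 1 was the lowest of the treated libraries. The fitted log2 fold change was 4.33 (SE 0.40) in P-DXd-titled and 4.49 (SE 0.28) in T-DXd-titled xenografts, which is 20.2-fold and 22.4-fold. In the T-DXd-titled comparison and with all 6 treated libraries, IL34 passed the filter on low counts only through treated libraries, where it was higher. Its values and calls are therefore a description.

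CSF1 (ENSG00000184371.9, chromosome 1, 110452864 to 110473614) was the more abundant ligand and differed less. Its levels were 15.6, 25.7 and 24.7 CPM in PBS replicates, 63.0, 56.0 and 70.6 CPM in P-DXd-titled replicates, and 65.6, 63.2 and 64.2 CPM in T-DXd-titled replicates. The lowest treated library was above the highest PBS library, and PBS replicate 1 was below the other PBS libraries. The log2 fold change was 1.54 (SE 0.21) in P-DXd-titled and 1.55 (SE 0.19) in T-DXd-titled xenografts, and 1.34 and 1.35 without PBS replicate 1.

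Because the transcripts differ in length, the ligands were compared as CPM per kilobase of exon. CSF1 exceeded IL34 by 48.7-fold, 93.6-fold and 59.1-fold in PBS replicates 1 to 3, by 14.8-fold, 6.73-fold and 8.99-fold in P-DXd-titled replicates, and by 7.63-fold, 8.95-fold and 8.94-fold in T-DXd-titled replicates. CSF1 was thus the larger ligand transcript in all 9 libraries, while the ratio was lower in each treated library than in each PBS library. IL34 made up 1.06% to 2.01% of the summed ligand level in PBS libraries and 6.31% to 12.9% in treated libraries. The sum itself was 3.03 to 4.96 CPM per kilobase in PBS and 12.3 to 15 in treated libraries.

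**Figure D1:**
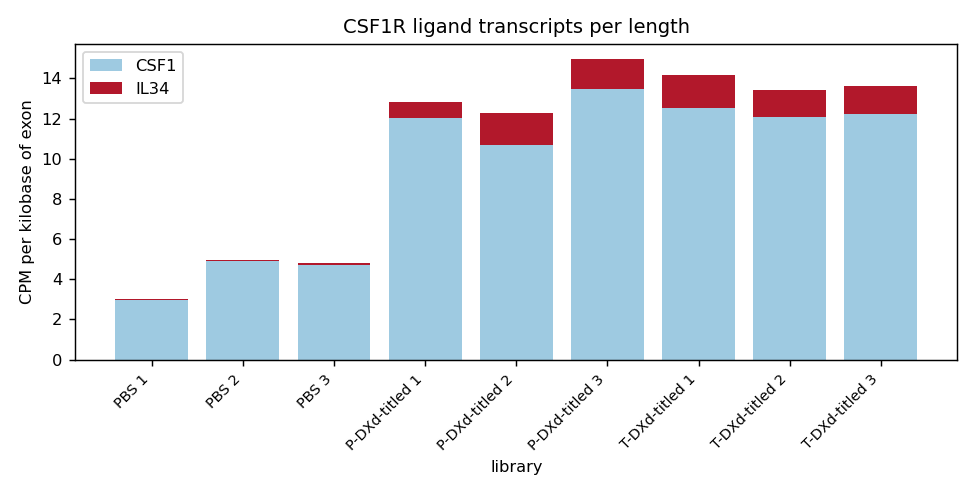
CSF1 (blue) and IL34 (red) in CPM per kilobase of exon, stacked, in each of the 9 libraries. The stacks reach 3.03 to 4.96 in PBS and 12.3 to 15 in treated libraries, and the IL34 share is at most 2.01% in PBS and at least 6.31% in treated libraries.

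The receptor CSF1R (ENSG00000182578.9, chromosome 5, 149432854 to 149492935) was low but well counted, with 221 to 340 counts in PBS and 436 to 1079 counts in treated libraries. Its levels were 2.51, 2.65 and 2.87 CPM in PBS replicates, 6.44, 8.0 and 9.14 CPM in P-DXd-titled replicates, and 10.1, 14.5 and 10.4 CPM in T-DXd-titled replicates. The 3 groups did not overlap, with T-DXd-titled libraries highest and T-DXd-titled replicate 2 above the rest. The log2 fold change over PBS was 1.57 (SE 0.21) in P-DXd-titled and 2.12 (SE 0.19) in T-DXd-titled xenografts. In RNA of a whole tumor, more cells of a type and more RNA per cell cannot be told apart.

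LYZ (ENSG00000090382.2, chromosome 12, 69742121 to 69748014), a secreted enzyme abundant in macrophages and neutrophils, was the marker with the widest difference among those tested in both treated groups. Its levels were 1.83, 0.663 and 0.712 CPM in PBS replicates, 6.22, 9.30 and 8.35 CPM in P-DXd-titled replicates, and 12.4, 15.3 and 10.3 CPM in T-DXd-titled replicates. No group overlapped another. The log2 fold change was 2.92 (SE 0.44) in P-DXd-titled and 3.59 (SE 0.44) in T-DXd-titled xenografts, and without PBS replicate 1 it was 3.54 and 4.21.

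The C1q genes were barely counted. C1QB (ENSG00000173369.11, chromosome 1, 22979255 to 22988031) had 6, 4 and 2 counts in PBS replicates, 9, 12 and 8 in P-DXd-titled replicates, and 18, 31 and 18 in T-DXd-titled replicates. Counts in each treated library were above those in each PBS library although the PBS libraries were deeper, and T-DXd-titled libraries were highest. C1QB passed the filter in the T-DXd-titled comparison through its T-DXd-titled libraries alone, at a log2 fold change of 3.02 (SE 0.59), and not in the P-DXd-titled one, where the fit with no filter gave 1.95. C1QA (ENSG00000173372.12, chromosome 1, 22962999 to 22966101) was listed in the T-DXd-titled table alone, with 1, 2 and 1 counts in PBS and 11, 6 and 4 in T-DXd-titled libraries, and passed no filter.

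CD14 overlapped between PBS and treated tumors, and CD68 was too low to test. CD14 (ENSG00000170458.9, chromosome 5, 140011313 to 140013286) was 0.432, 0.570 and 0.490 CPM in PBS replicates, 0.381, 0.496 and 1.25 CPM in P-DXd-titled replicates, and 1.29, 0.700 and 0.640 CPM in T-DXd-titled replicates. P-DXd-titled replicates 1 and 2 lay among or below the PBS libraries, while the T-DXd-titled libraries lay just above them. The log2 fold change was 0.52 (SE 0.50) and 0.82 (SE 0.37), neither called, and without P-DXd-titled replicate 3 the former was -0.17.

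CD68 (ENSG00000129226.9, chromosome 17, 7482785 to 7485429) had 10, 5 and 4 counts in PBS replicates, 0, 2 and 8 in P-DXd-titled replicates, and 2, 0 and 2 in T-DXd-titled replicates, and was below the filter in every fit. The count of 0 in P-DXd-titled replicate 1 allows up to 0.0357 CPM and that in T-DXd-titled replicate 2 up to 0.0404 CPM, covering counting error only, and the lowest PBS library stood at 0.0356 CPM. A difference in CD68 was not detectable at this depth.

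**Figure D2:**
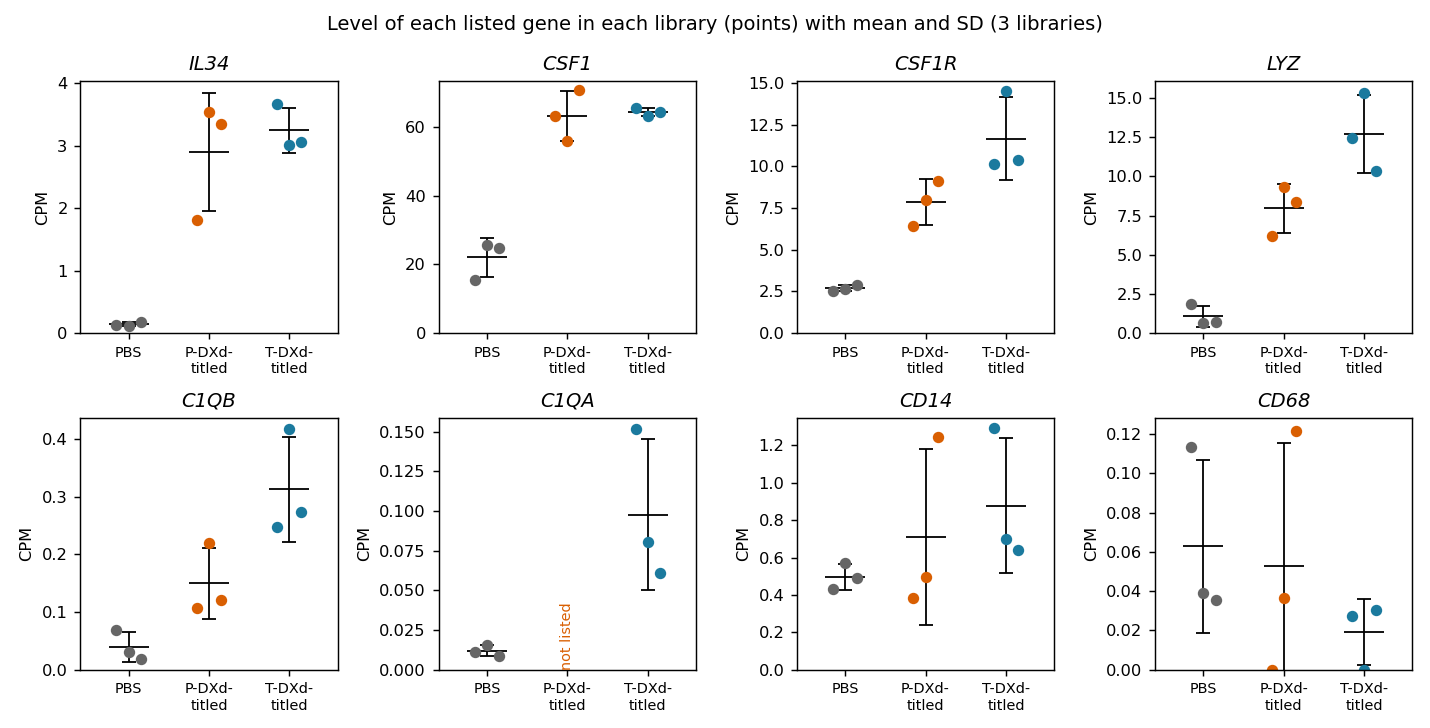
Level in CPM (linear axis from 0) of the 8 listed genes in each library (points), with the mean (wide bar) and SD (capped line) of 3 libraries per group. IL34, CSF1, CSF1R, LYZ and C1QB lie higher in every treated library than in every PBS library, CD14 and CD68 overlap, and C1QA was not listed with P-DXd-titled libraries.

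Per kilobase of exon, the order of levels in PBS tumors was CSF1 (4.20 ± 1.06, SD, n = 3), LYZ (0.620 ± 0.382), CSF1R (0.520 ± 0.035), CD14 (0.302 ± 0.042), IL34 (0.0644 ± 0.0140), CD68 (0.0290 ± 0.0204), C1QB (0.0168 ± 0.0112) and C1QA (0.00453 ± 0.00129). LYZ did not differ from CSF1R beyond its spread, nor did CD68 from C1QB. In PBS replicates 1 to 3, LYZ was 1.06, 0.385 and 0.413 and CSF1R 0.487, 0.515 and 0.556 CPM per kilobase, so that LYZ stood above CSF1R in replicate 1 and below it in the other PBS libraries. In T-DXd-titled tumors, the order was CSF1 (12.3 ± 0.222), LYZ (7.37 ± 1.46), CSF1R (2.26 ± 0.480), IL34 (1.45 ± 0.162), CD14 (0.533 ± 0.220), C1QB (0.135 ± 0.039), C1QA (0.0370 ± 0.0180) and CD68 (0.00894 ± 0.00777). IL34 therefore stood below CD14 in PBS and above it in T-DXd-titled tumors. In P-DXd-titled tumors, IL34 (1.3 ± 0.425) was within its spread of CSF1R (1.53 ± 0.263) and above CD14 (0.430 ± 0.286).

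A gene was called at an adjusted p of at most 0.05 and a fold change of at least 1.5. In the P-DXd-titled comparison, 4 of the 5 members tested were called higher and 0 lower, where 11.2% of all genes tested were called higher and 13.8% lower. In the T-DXd-titled comparison, 5 of 6 were called higher and 0 lower (13.1% and 15.5% of all genes), and with all 6 treated libraries against PBS, 5 of 6 higher and 0 lower (15.2% and 17.1%). The 6 treated libraries did not overlap the PBS libraries in 5 of 6 members and in 50.5% of all genes tested. Since these contrasts chose the members, nothing is read from the counts, and the 2 comparisons share their PBS libraries. Leaving out P-DXd-titled replicate 2 moved the log2 fold changes of IL34, CSF1, CSF1R and LYZ over all 6 treated libraries to 4.36, 1.57, 1.92 and 3.32, from 4.40, 1.54, 1.87 and 3.29.

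The comparison between the treated groups, as P-DXd-titled over T-DXd-titled, was not used to choose the members and was tested. By edgeR's quasi-likelihood test with Benjamini-Hochberg adjustment, 0 of 6 members were called, against 0.0273% of all 14653 genes, and 2 of the 6 (CSF1R and LYZ) had an unadjusted p under 0.05, as did 540 of all genes (3.69%). IL34 differed by a log2 fold change of -0.17 (SE 0.26, 95% interval -0.74 to 0.40, adjusted p 1.00), with overlapping groups. CSF1 differed by -0.025 (SE 0.085, 95% interval -0.21 to 0.16, adjusted p 1.00), so that a difference of 1.5-fold in either direction was outside its interval.

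CSF1R and LYZ stood lower in P-DXd-titled libraries than in T-DXd-titled ones. CSF1R differed by -0.57 (SE 0.17, 95% interval -0.96 to -0.18) and LYZ by -0.68 (SE 0.18, 95% interval -1.08 to -0.28), each with non-overlapping groups and an adjusted p of 1.00 by edgeR. DESeq2 called LYZ (log2 fold change -0.68, adjusted p 0.0320) and no other member. CD14 differed by -0.31 (SE 0.48, 95% interval -1.38 to 0.75) with overlap. C1QB differed by -1.09 (SE 0.50, 95% interval -2.20 to 0.017), but it passed the filter only through the T-DXd-titled libraries, where it was higher, so its value is a description. CD68, with at most 8 counts in these libraries, was not tested. Of the 5 tested members other than C1QB, groups did not overlap for 2 (CSF1R and LYZ), and they did not for 8.08% of all genes tested. The intervals for CSF1R and LYZ lie below 0 before adjustment for the number of genes, and the difference between the groups did not hold after it in edgeR.

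**Figure D3:**
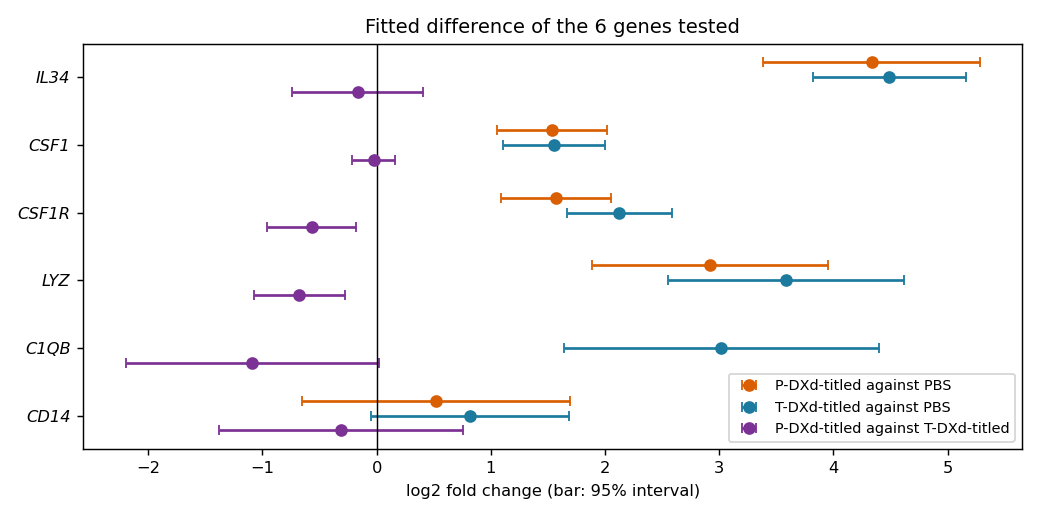
Fitted log2 fold change (points) with its 95% interval (bars) for the 6 members tested, in P-DXd-titled against PBS (orange), T-DXd-titled against PBS (blue) and between the treated groups (purple), C1QB not being tested in the first. Intervals of IL34 and CSF1 between the treated groups include 0, and those of CSF1R (-0.96 to -0.18) and LYZ (-1.08 to -0.28) do not.

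Beside CSF1R, other proteins bind IL-34 or signal with TYROBP. TREM2, a lipid receptor of macrophages that signals through TYROBP, rose from 0.0936 to 0.341 CPM in PBS libraries to 0.752 to 1.99 CPM in the 6 treated libraries (log2 fold change 2.98, SE 0.51), without overlap. With 12 to 30 counts in PBS, TREM2 passed the filter on low counts only through treated libraries, so its value is a description. PTPRZ1, a receptor phosphatase that binds IL-34, fell from 0.125 to 0.841 CPM to 0 to 0.167 CPM (-2.92, SE 0.82, edgeR adjusted p 0.0113), but on at most 74 counts, with overlap, and its call was lost without PBS replicate 1 (adjusted p 0.0880). SDC1, a proteoglycan that also binds IL-34, was abundant in every group, at 332 to 501 CPM in PBS and 264 to 345 CPM in treated libraries (-0.31, SE 0.13, edgeR adjusted p 0.0611), and was not called.

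A wider list of 39 macrophage markers without the members was examined, of which 31 were listed and 27 tested with all 6 treated libraries. Of the 27, 11 rose, 1 fell and 15 were not called, where 15.2% of all genes tested were called higher and 17.1% lower. The median log2 fold change was 0.61 against -0.014 over all 15070 genes. Among the 11 were HLA-DRA, CSF2RA, TLR7 and TREM2, which passed the filter on low counts only through treated libraries, as did SIGLEC1, so the count is a description. In the P-DXd-titled comparison, 7 of 22 rose and 0 fell (11.2% and 13.8% of all genes tested). However, 3 rose without PBS replicate 2 and 4 without P-DXd-titled replicate 3. In the T-DXd-titled comparison, 8 of 24 rose and 1 fell (13.1% and 15.5% of all genes tested). Without PBS replicate 1, 12 rose and 2 fell. The list is not uniform, since established tissue macrophage genes such as CD163, MRC1, ADGRE1, FOLR2, VSIG4 and MS4A7 were in neither table.

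By fitted fold change the naming rule took HLA-DRA, CSF2RA, TREM2 and TLR7, and apart from TREM2 these had at most 5 counts in any PBS library. Each passed the filter on low counts only through treated libraries, where it was higher, so the values and calls of these genes are a description. HLA-DRA, an MHC class II chain, had 0 counts in all 3 PBS libraries and 18, 0, 10, 19, 1 and 16 counts in the treated libraries, at least 5.26-fold higher against a limit of 3 counts per PBS library, a bound below the 5.49-fold rise of SIGLEC1, a sialic acid receptor of macrophages, so the place of HLA-DRA in this order is not established. SIGLEC1, at 2 to 10 counts in PBS, also passed the filter only through treated libraries, so its rise is a description. CSF2RA, the GM-CSF receptor alpha chain, rose from at most 5 counts to 4 to 24 counts (log2 fold change 3.14, SE 0.77). TLR7, a sensor of single-stranded RNA, rose from at most 5 counts to 3 to 21 counts (2.55, SE 0.88). Its call was lost in 5 of 14 alternatives, each of which left out 1 library or added a block. MSR1, a scavenger receptor of macrophages, fell from 0.970 to 2.16 CPM to 0.317 to 1.05 CPM (-1.3, SE 0.40, edgeR adjusted p 0.0176), with overlap, and was not called without PBS replicate 2 (adjusted p 0.131).

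Better counted genes of the list are added here after their values were seen. SPI1, which encodes PU.1, rose from 7.89 to 17.2 CPM in PBS to 28.4 to 45.6 CPM in treated libraries (log2 fold change 1.72, SE 0.24, edgeR adjusted p 0.000209). CYBB, the catalytic subunit of the phagocyte NADPH oxidase, rose from 2.06 to 2.95 CPM to 7.43 to 9.67 CPM (1.86, SE 0.16, edgeR adjusted p 9.26e-06). AIF1, a cytoskeletal marker of macrophages and microglia, rose from 0.498 to 0.750 CPM to 1.25 to 3.56 CPM (2.13, SE 0.34, edgeR adjusted p 0.000469). None of these overlapped between PBS and treated libraries. Of the 27 markers tested, groups did not overlap for 10, and they did not for 50.5% of all genes tested.

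Other leukocyte genes of the list were abundant without a call. ITGB2, the beta chain of leukocyte integrins, was 36.7 to 122 CPM in PBS and 111 to 140 CPM in treated libraries (log2 fold change 0.60, SE 0.28, edgeR adjusted p 0.0861). LAPTM5, a lysosomal protein of blood cells, was 9.40 to 32.0 CPM and 9.47 to 15.6 CPM (-0.37, SE 0.33, edgeR adjusted p 0.359). Between the treated groups, edgeR and DESeq2 each called 0 of the list, 2 of the 25 tested with edgeR (ITGB2 and SIGLEC1) had an unadjusted p under 0.05, beside 3.69% of all genes, and the median was -0.12.

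**Figure D4:**
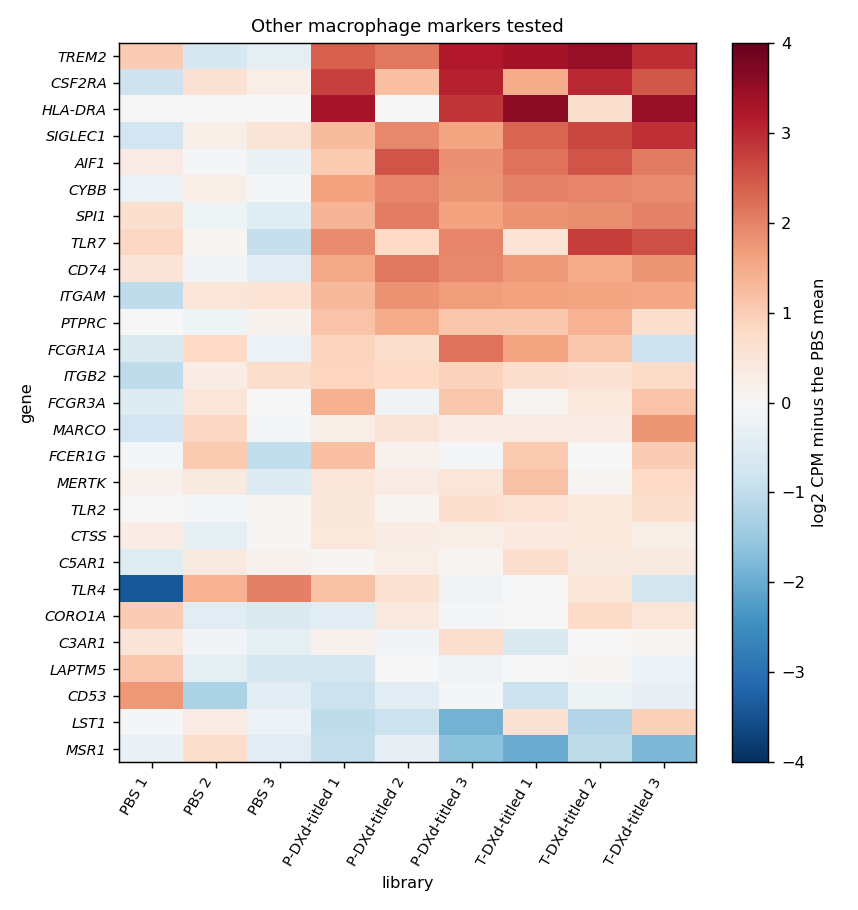
Log2 CPM minus the PBS mean (color, prior count of 2) for the 27 other macrophage markers tested (rows, ordered by the mean over treated libraries) in the 9 libraries (columns). TREM2, CSF2RA and HLA-DRA head the rows, MSR1 closes them, and 15 of the 27 were not called.

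Of 17 myeloid growth factors and chemoattractants, 14 were tested, and with all 6 treated libraries 5 rose and 4 fell. Of all genes tested, 15.2% were called higher and 17.1% lower. The median log2 fold change of the list was 0.72, against -0.014 over all genes. The list holds colony-stimulating factors, chemokines and other factors that act on myeloid cells. CCL2, the main monocyte chemoattractant, rose from at most 0.359 CPM in PBS to 0.786 to 1.79 CPM (log2 fold change 2.73, SE 0.74). With 0 to 46 counts in PBS, CCL2 passed the filter on low counts only through treated libraries, so its value is a description. CCL5, which attracts monocytes and T cells, rose from 5.07 to 6.79 CPM to 24.7 to 49.7 CPM (2.48, SE 0.22, edgeR adjusted p 1.2e-05). CXCL12, a ligand of CXCR4, rose from 1.26 to 4.96 CPM to 6.35 to 11.3 CPM (1.84, SE 0.43, edgeR adjusted p 0.00424), and CCL20, the ligand of CCR6, from 40.1 to 54.3 CPM to 103 to 133 CPM (1.29, SE 0.11, edgeR adjusted p 1.04e-05).

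The other colony-stimulating factors moved opposite to CSF1. CSF3 (G-CSF), the growth factor of neutrophils, fell from 3.86 to 49.0 CPM in PBS to 0.670 to 2.24 CPM in treated libraries (log2 fold change -3.88, SE 0.63, edgeR adjusted p 0.000489), without overlap. PBS replicate 1 was the highest, at 2.02 above the PBS mean in log2 CPM, with replicates 2 and 3 at -0.39 and -1.63, so the size of the fall leans on replicate 1. CSF2 (GM-CSF), which acts on granulocytes and macrophages, fell from 3.57 to 9.42 CPM to 1.29 to 4.68 CPM (-1.36, SE 0.41, edgeR adjusted p 0.0165), with overlap, and was not called without PBS replicate 1 (adjusted p 0.0955). VEGFA, an endothelial growth factor that also attracts monocytes, fell from 157 to 305 CPM to 71.7 to 96.2 CPM (-1.54, SE 0.16, edgeR adjusted p 3.5e-05), without overlap.

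The counts of this list depended on single libraries. In the P-DXd-titled comparison, 3 of 14 rose and 2 fell (11.2% and 13.8% of all genes tested), and 2 rose and 1 fell without P-DXd-titled replicate 1 or 3. In the T-DXd-titled comparison, 4 rose and 3 fell (13.1% and 15.5% of all genes tested). The total called there was 3 without T-DXd-titled replicate 1, 4 without replicate 2 or 3, and 11 with all 9 libraries in 1 fit. Over all 6 treated libraries the total called fell from 9 to 6 without PBS replicate 1. Between the treated groups edgeR and DESeq2 each called 0, and 2 of 14 (CCL5 and SPP1) had an unadjusted p under 0.05 by edgeR, beside 3.69% of all genes.

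**Figure D5:**
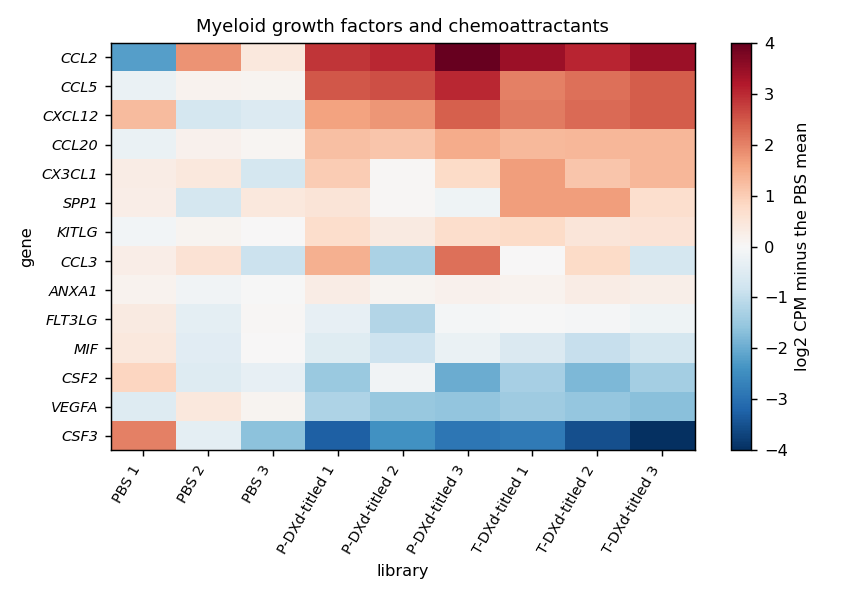
Log2 CPM minus the PBS mean (color, prior count of 2) for the 14 myeloid growth factors and chemoattractants tested, in the 9 libraries. CCL2, CCL5, CXCL12 and CCL20 are higher and VEGFA and CSF3 lower in each treated library than in each PBS library.

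Of 13 genes of signalling below CSF1R, all tested, 4 rose and 4 fell with all 6 treated libraries, with a median log2 fold change of 0.0067. Of all genes tested, 15.2% were called higher and 17.1% lower. Among those that rose were the transcription factors STAT5A (log2 fold change 2.04, SE 0.51), STAT3 (1.1, SE 0.24) and MITF (0.76, SE 0.10), with edgeR adjusted p from 0.000165 to 0.00613. PIK3CD, a catalytic subunit of PI3-kinase, fell from 24.6 to 42.0 CPM in PBS to 8.78 to 13.2 CPM (-1.50, SE 0.16, edgeR adjusted p 4.04e-05). CBL, a ubiquitin ligase that ends signalling by CSF1R, fell from 99.6 to 119 CPM to 41.5 to 50.8 CPM (-1.25, SE 0.08, edgeR adjusted p 3.54e-06). In each comparison of 1 treated group with PBS, 4 rose and 3 fell. Of all genes, 11.2% and 13.8% did so in the P-DXd-titled and 13.1% and 15.5% in the T-DXd-titled comparison. Between the treated groups edgeR and DESeq2 each called 0, with 0 at an unadjusted p under 0.05 by edgeR, beside 3.69% of all genes.

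Genes that CD68 resembles in function, those of the lysosome, are shared by tumor cells and macrophages, and 13 of 17 rose with 0 lower (median log2 fold change 0.90). Of all genes tested, 15.2% were called higher and 17.1% lower. GPNMB rose by 2.40 (SE 0.60), HEXA by 2.32 (SE 0.27) and CTSD by 1.17 (SE 0.20) on the log2 scale, with edgeR adjusted p from 5.87e-05 to 0.00606. CTSD, a lysosomal protease, stood at 204 to 441 CPM in PBS and 692 to 857 CPM in treated libraries, while CD68 stayed at or below 0.122 CPM in all 9 libraries.

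Markers of some other cell types rose beside the members and those of others did not, and their part in the members' levels was not tested. With all 6 treated libraries, 15.2% of all genes tested were called higher and 17.1% lower. Of 4 neutrophil markers tested, 3 rose, among them S100A9 (136 to 600 CPM in PBS, 1161 to 1626 CPM in treated libraries) and S100A8, LCN2 was called higher in the P-DXd-titled comparison alone, and MPO, ELANE and MMP8 were in neither table. Summed over the 7 listed genes, neutrophil markers ranged from 258 to 772 CPM in PBS and from 1438 to 1926 CPM in treated libraries, most of it from S100A9. CSF3R and LTF, part of that sum, stayed at or below 0.179 and 0.220 CPM in every library. Which cells the summed RNA came from was not tested. CXCR2, a chemokine receptor of neutrophils that was below the filter, had 77, 12 and 23 counts in PBS replicates 1 to 3 and 0 to 6 counts in treated libraries. All 7 muscle markers (ACTA1, CASQ1, CKM, DES, MB, MYLPF and TNNC2) rose, and 6 of them were also called in the T-DXd-titled comparison, which does not include P-DXd-titled replicate 2. ACTA1, skeletal muscle actin, was 0.294 to 16.8 CPM in PBS libraries, 1327 CPM in P-DXd-titled replicate 2 and 27.4 to 109 CPM in the other treated libraries. Of fibroblast markers, COL3A1, COL1A2, PDGFRA and FAP rose, 4 of 8 tested, and their sum over 9 genes was 1056 to 2056 CPM in PBS and 1219 to 2215 CPM in treated libraries, with COL1A1 most abundant and not called.

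Lymphoid markers were low. In the fit of all 6 treated libraries, 15.2% of all genes tested were called higher and 17.1% lower. T and NK cell markers summed to 3.08 to 3.90 CPM over 5 genes in PBS and 1.56 to 2.09 CPM in treated libraries, CD8A alone being called (-0.95, SE 0.18, edgeR adjusted p 0.00125), and CD3E, CD3G, CD2, GZMA, GZMB and PRF1 were in neither table. B cell markers summed to at most 0.750 CPM over 2 genes, with 0 called in the fit of all 6 treated libraries by edgeR, and MS4A1 and CD79B in neither table. PAX5 was called lower in the T-DXd-titled comparison, but at 4 to 6 counts in T-DXd-titled libraries it passed the filter through PBS libraries alone. Of dendritic cell markers, XCR1, a chemokine receptor, rose (3.46, SE 0.55), 1 of 3 tested, and ZBTB46 was the most abundant. With 5 to 58 counts in PBS, XCR1 passed the filter only through treated libraries, so its value is a description. Of endothelial markers, TEK rose (1.16, SE 0.31, edgeR adjusted p 0.00876), 1 of 5 tested. The mast and red blood cell markers tested in the fit of all 6 treated libraries, KIT and HBB, were not called. CPA3 was called higher in the T-DXd-titled comparison, but at 1 to 5 counts in PBS it passed the filter through T-DXd-titled libraries alone. The epithelial keratins KRT8 (1.31, SE 0.10) and KRT18 (0.69, SE 0.08), abundant in PC3, also rose, at edgeR adjusted p of 5.37e-06 and 5.63e-05, while EPCAM was called higher in the P-DXd-titled and KRT19 in the T-DXd-titled comparison alone.

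The genes whose pattern was most like that of each ligand and the receptor were found by the root mean square (RMS) difference of mean-centred log2 CPM over 9 libraries, among genes tested that are no member. Nearest to IL34 were GGTLC1 (RMS 0.28), IL2RG (0.36), CST4 (0.37), CILP (0.38) and ALDH1L1 (0.41). GGTLC1 had 0 counts in all 3 PBS libraries and 20 to 42 counts in treated libraries, at least 16.3-fold higher against the same limit of 3 counts. IL2RG, the common gamma chain of interleukin receptors, whose mouse gene is disrupted in NSG mice, was 0.307, 0.538 and 0.507 CPM in PBS replicates, 7.47, 8.02 and 10.6 CPM in those titled P-DXd, and 8.15, 6.59 and 9.61 CPM in those titled T-DXd. Each treated library was above each PBS library in IL2RG. Nearness to IL34 chose these genes, so their patterns are a description, and GGTLC1 and CST4 passed the filter only through treated libraries.

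Nearest to CSF1 were CXCL16 (RMS 0.063), APP (0.065), PPL (0.066), BDNF (0.089) and COL18A1 (0.091). CXCL16, a chemokine made by macrophages and epithelial cells, averaged 36.1 CPM in PBS libraries, 103 CPM in those titled P-DXd and 101 CPM in those titled T-DXd. Nearest to CSF1R were CORO2B (RMS 0.23), ACP5 (0.23), PIANP (0.24), GAS7 (0.24) and OLFML3 (0.24). ACP5, the tartrate-resistant acid phosphatase of osteoclasts and macrophages, averaged 0.743, 2.05 and 3.05 CPM in PBS, P-DXd-titled and T-DXd-titled libraries. Unlike those of CSF1R, its P-DXd-titled libraries (1.56 to 2.75 CPM) overlapped those titled T-DXd (2.55 to 3.70 CPM). Nearness to CSF1 chose CXCL16 and nearness to CSF1R chose ACP5, so their patterns are a description. Among the members themselves, CSF1R was nearest to CSF1 (0.35) and C1QB (0.43), and IL34 to LYZ (0.63).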

How the data were processed

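Groups were taken from sample titles, with 3 libraries in each of the PBS, T-DXd-titled and P-DXd-titled groups; sources do not say whether each library is a separate mouse, so p-values measure the spread between libraries. The 2 deposited tables hold raw counts of 16098 and 16114 genes, made by the authors with featureCounts after trimming (Cutadapt) and alignment (STAR). Whether mouse reads were removed or strand was used is not given in the sources used here. The tables' coordinates differed from GENCODE v44 (GRCh38) for all 8 members listed. No listed gene overlapped a member, and 0 columns of per-sample values were left unused.

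Counts were tested with edgeR 4.0.16 in R 4.3.3 (limma 3.58.1), with TMM scaling, filterByExpr and the quasi-likelihood F test, adjusted by Benjamini-Hochberg over all genes tested. Pairs of groups were fitted on their own libraries, and both conjugates against PBS on all 9. The call threshold (adjusted p of at most 0.05, fold change 1.5 or more) is after the study's methods, which used DESeq2. CPM are counts over TMM-adjusted totals, and lengths are union exons of GENCODE v44, not the authors' annotation. The fits were tested on simulated data.

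Members, lists and tests were chosen with earlier results of these data known. Named were all members; PTPRZ1, SDC1, TREM2, CCL2, CSF2 and VEGFA; in each list the 4 called genes that rose most and the 2 that fell most over all 6 treated libraries; for lists of other cell types the most abundant gene and any called gene; and the 5 genes nearest to IL34, CSF1 and CSF1R. Genes outside this rule are named as such or as values. Some genes that the rule names are not reported here. Alternatives were DESeq2 1.42.0, RLE factors, library totals, no filter, a minimum of 10 counts per library, no fold minimum, all 9 libraries in 1 fit, a block on the first digit of the code in the title, whose meaning the labels do not give, and leaving out each library.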

Additional observations from a re-analysis of the deposited data

How the results depend on the processing

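Every log2 fold change over PBS of IL34, CSF1, CSF1R and LYZ kept its direction and its call in all 13 alternatives for each treated group and in all 15 for the 6 treated libraries, and that of C1QB in 12 and 14, a filter of 10 counts in every library removing it. These contrasts chose the members, so the kept calls describe the processing only and support nothing. In addition, IL34 and C1QB passed the filter only through treated libraries in the T-DXd-titled comparison and with all 6 treated libraries. CD14 against PBS in P-DXd-titled libraries ranged from -0.17 to 0.82 when 1 library was left out, -0.17 being without P-DXd-titled replicate 3. Between the treated groups, leaving out 1 library gave -0.34 to 0.087 for IL34, -0.11 to 0.054 for CSF1 and -1.01 to 0.078 for CD14. The positive values came without P-DXd-titled replicate 1 (IL34 0.087, CD14 0.0014), P-DXd-titled replicate 2 (CSF1 0.054) or T-DXd-titled replicate 1 (CD14 0.078). The block on the first digit in the title's code gave 0.0056 for CSF1 and changed no member's call. DESeq2 called 1 member (LYZ) between the treated groups, where edgeR called 0. Leaving out 1 library, the called other macrophage markers numbered 3 to 10 in the P-DXd-titled and 7 to 14 in the T-DXd-titled comparison, and the called growth factors 3 to 6 and 3 to 9. All 9 libraries in 1 fit called 11 growth factors in the T-DXd-titled comparison. The cause of these shifts was not tested, beyond fewer libraries in each fit. Counts below about 20 in a library limit C1QA, C1QB, CD68, HLA-DRA, CSF2RA and TLR7. Such counts in PBS libraries also limit IL34, TREM2, SIGLEC1, CCL2 and XCR1.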
